A study of Mus musculus with 4 samples.

Results

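Matrix metalloproteinases are zinc-dependent enzymes that are secreted or held at the cell surface as inactive proenzymes and cut collagens, elastin, laminins and other proteins outside the cell. Tissue inhibitors of metalloproteinases (TIMPs) bind the active site of these enzymes and block them. In skin the enzymes are known from wound closure, inflammation and the remodelling of the dermis around the hair follicle, and fibroblasts, keratinocytes and macrophages each make a different set of them. Expression of 10 genes of this system, 7 enzymes (Mmp2, Mmp3, Mmp9, Mmp10, Mmp12, Mmp13 and Mmp14) and 3 inhibitors (Timp1, Timp2 and Timp3), was described here in mouse dorsal skin. Every probe set of an Affymetrix mouse expression array that the platform annotation gives to 1 of these symbols was taken, 22 probe sets in all. The genes were selected on function as a family, with their measured differences between these genotypes in view, so their differences between genotypes are given as descriptions with no test of their own.

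Total RNA came from dorsal skin of mice at postnatal day 16, when the first growth phase of the hair is near its end. Of the 4 arrays, 2 held skin of wild type animals and 2 held skin of bitransgenic animals that overexpress deltaNp63alpha, the p63 isoform typical of basal keratinocytes, and the labels call the arrays of a genotype biological replicates. The promoter that drives the transgene, the 2 transgenes, the strain, the sex and any inducing treatment are not given in the labels. Values are array signals in intensity units. Differences are bitransgenic minus wild type on the scale log2(signal + 16) with the standard error (SE) of limma's fit, and n = 2 per genotype throughout. A gene is said to have risen or fallen only where its adjusted p (Benjamini-Hochberg over all 13070 genes tested) lay under 0.05.

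The overexpressed gene was higher through 2 of its 4 probe sets. For 1451876_a_at the Trp63 signals were 206 and 838 in wild type against 10325 and 15247 in bitransgenic skin, and 1452027_a_at likewise had no overlap between genotypes. The other 2, 1418158_at and 1459581_at, overlapped between genotypes. The 8 keratinocyte markers that define the tissue were all past the filter on low signals, with Krt14 between 22719 and 36168. Arrays of the same genotype correlated at 0.918 (wild type) and 0.949 (bitransgenic), against 0.869 to 0.920 across genotypes. Wild type replicate 1 and bitransgenic replicate 2 had high signal of the Y-linked gene Eif2s3y and the other 2 arrays had high Xist, so each genotype held 1 array of each kind. The summed signal of 6 skeletal muscle markers was 153106 and 61575 in the wild type arrays (replicates 1 and 2) against 12687 and 16986 in the bitransgenic ones. For 9 markers of growing hair follicles the sums were 54943 and 97438 against 981 and 5755. Both lists were lower in bitransgenic skin, with 5 of 6 and 4 of 9 genes past the threshold (1.58% of all genes tested fell). Lef1 of the hair follicle list had a bitransgenic mean below the filter, so it was tested only through its wild type signals. The part of both lists in the values below was not tested.

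Of the enzyme genes, 4 lie in a row on mouse chromosome 9, in the sequence Mmp13, Mmp12, Mmp3 and Mmp10, with Mmp1b and Mmp1a between them in the RefSeq gene order. This gene cluster is known for promoters that carry a site for AP-1, the Fos and Jun transcription factor family, close to the start of transcription. The 100 bases before an annotated start are shown for each of these genes because they share that motif. They are RefSeq sequences of build GRCm38.p6, plus strand, 5′ to 3′, and the capitals mark the AP-1 motif TGAGTCA, which reads TGACTCA when it lies on the other strand, and the TATA box motif TATAAA.
Mmp13, chr9:7272414-7272513: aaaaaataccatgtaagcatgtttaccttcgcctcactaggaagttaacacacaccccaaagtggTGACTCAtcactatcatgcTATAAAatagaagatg
Mmp12, chr9:7347274-7347373: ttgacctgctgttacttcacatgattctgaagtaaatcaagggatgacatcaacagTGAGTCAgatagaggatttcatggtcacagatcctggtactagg
Mmp3, chr9:7445722-7445821: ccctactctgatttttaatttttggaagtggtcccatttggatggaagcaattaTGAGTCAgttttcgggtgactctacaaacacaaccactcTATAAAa
Mmp10, chr9:7502242-7502341: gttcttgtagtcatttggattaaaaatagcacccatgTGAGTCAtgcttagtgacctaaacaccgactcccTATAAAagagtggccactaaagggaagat

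Both strands of the 250 bases before each annotated start were searched. The AP-1 motif was found for 4 of the 4 cluster genes described here. It ended 57, 40, 38 and 29 bases before the start in Mmp10, Mmp3, Mmp12 and Mmp13. Mmp12 has 2 annotated starts, and the motif stood before the one shown and not before the other. Among all 32851 promoter windows of that length, 4.46% held the motif. It was not found in the windows of Mmp14, Timp1, Timp2 and Timp3, while Mmp2 and Mmp9 were not matched. Of 13 other metalloproteinase genes with a window, 3 held it (Mmp1a, Mmp1b and Mmp7). Mmp8 and Mmp27, which follow Mmp10 in the gene order, were among those without it. The PEA3 motif AGGAAG, bound by Ets family factors, stood in windows of Mmp3, Mmp12, Mmp13, Mmp14, Timp1 and Timp3, against 29.5% of all windows. For Mmp12 it stood before the start that is not shown, and not before the one with the AP-1 motif. A half-site of the p53 family, to which p63 belongs, was found in Mmp13 alone among the members' windows, against 7.13% of all windows. No 2 different motifs overlapped in these windows. A motif match is a run of letters and shows no binding.

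Of the 10 genes, 9 passed the filter on low signals and Mmp10 did not. Mmp12 rose (1 of 9, where 0.750% of all genes tested rose) and Timp3 fell (1 of 9, where 1.58% of all genes fell), and nothing is read from these counts because the genes were chosen with this contrast known. Both bitransgenic arrays lay above both wild type arrays for Mmp12, Mmp13 and Timp1 (23.9% of all genes) and below them for Mmp3, Timp2 and Timp3 (24.9% of all genes). Mmp2, Mmp9 and Mmp14 overlapped between genotypes. The median difference of the 9 genes was -0.18, beside 0.0053 over all genes tested.

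**Figure D1:**
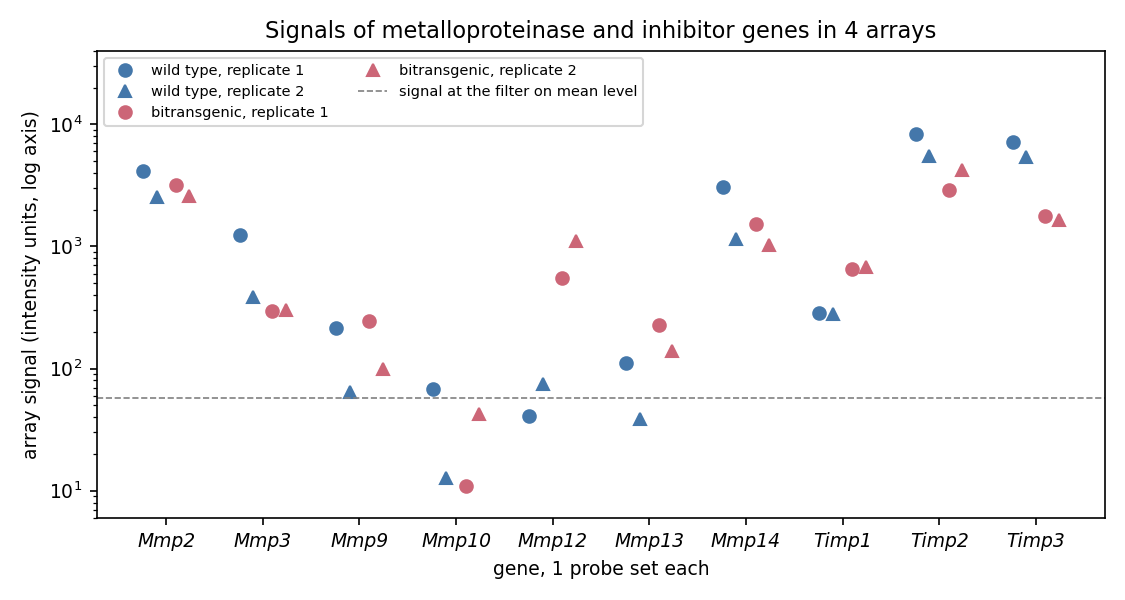
Array signal (log axis, intensity units) of each gene in the 4 arrays, through the probe set that stands for the gene, with circles for replicate 1 and triangles for replicate 2. Mmp12 is near the dashed filter signal of 57.0 in wild type (blue) and between 556 and 1114 in bitransgenic skin (red), and Timp3 is lower in both bitransgenic arrays.

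Mmp12 codes for macrophage metalloelastase, which cuts elastin and is made mainly by macrophages. The wild type arrays read 40.8 and 75.4 (replicates 1 and 2, the order used throughout) and the bitransgenic arrays read 556 and 1114. All bitransgenic values were thus several-fold above all wild type values, of which 1 lay below the filter signal of 57.0. The gene rose, with a log2 difference of 3.48 ± 0.46 (SE; 95% interval 2.38 to 4.58). Its wild type mean (6.17 on the log2 scale) lay below the filter (6.19), so it was tested only through its bitransgenic signals. Its bitransgenic mean on that scale lay 11.0-fold above the filter, which is an estimate and no lower limit. Each of the 4 ways to set a bitransgenic against a wild type array gave a higher value in bitransgenic skin, from 2.64 to 4.31. The call was lost without bitransgenic replicate 2, where the difference was 2.99, and the size depended on the pseudocount, at 3.80 with 1 and 2.82 with 64.

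Markers of macrophages and Mmp12 both had higher means in bitransgenic skin. Between the wild type arrays the marker sum was higher in replicate 1 and the Mmp12 signal in replicate 2. The wild type Mmp12 signals lay on both sides of the filter signal, so no order is read from them. Between the bitransgenic arrays the marker sum and Mmp12 were both higher in replicate 2. All 9 macrophage markers tested had higher means in bitransgenic skin, with a median of 1.03, none was called, and both bitransgenic arrays lay above both wild type arrays in 7 of 9 (23.9% of all genes). Their summed signal was 10003 to 16462 in wild type and 21519 to 29187 in bitransgenic skin. Itgam (43.2 and 61.3 against 133 and 197) had a wild type mean below the filter. That marker was thus tested only through its bitransgenic signals. Csf1r and Cd163 overlapped between genotypes. Lyz2, the lysozyme of myeloid cells, read 4657 and 3460 against 8175 and 13098. The macrophage receptor gene Adgre1 read 742 and 496 against 787 and 865. Both are named after their values were seen. More cells of a type and more RNA per cell cannot be told apart in bulk skin, and the part of these cells in the Mmp12 difference was not tested.

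Mmp13, the main interstitial collagenase of mice, which opens the triple helix of fibrillar collagen, read 111 and 38.4 in wild type against 228 and 139 in bitransgenic skin. The groups did not overlap, but the closest arrays, wild type replicate 1 and bitransgenic replicate 2, differed by only 0.29. The log2 difference was 1.23 ± 0.52 (95% interval -0.012 to 2.47) and did not pass. It was 0.62 when wild type replicate 2 was left out and 1.84 when replicate 1 was. The gap between the 2 wild type arrays was 1.22, as large as that between genotypes.

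Mmp3, or stromelysin-1, cuts proteoglycans, laminin and fibronectin and activates other proenzymes. It read 1231 and 389 in wild type against 298 and 301 in bitransgenic skin. The 2 bitransgenic arrays were nearly equal and lay just below wild type replicate 2, while wild type replicate 1 stood far above the other 3 arrays. The difference of -1.17 ± 0.53 did not pass and was smaller than the gap of 1.62 between the wild type arrays, in which replicate 1 was higher. Without wild type replicate 1 it was -0.36, and without wild type replicate 2 it was -1.98, where the gene was called. Mmp10, or stromelysin-2, the closest relative of Mmp3, read 68.0 and 12.8 in wild type against 10.9 and 42.3 in bitransgenic skin. With 3 of 4 arrays below the filter signal, these values give no order of the genotypes.

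The cluster genes described here each have the AP-1 motif shown above. Mmp12 and Mmp13 had higher means in bitransgenic skin and Mmp3 had a lower one. Only the Mmp12 difference passed, so no opposite directions are read from these values. The part of the motif in them was not tested. The neighbouring genes Mmp1a and Mmp1b, and Mmp8, the collagenase of neutrophils, did not pass the filter. Mmp8 read 21.1 and 27.3 in wild type against 128 and 94.2 in bitransgenic skin, so only its bitransgenic signals exceeded the filter signal, and it is named after its values were seen.

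The gelatinases cut denatured collagen and the collagen IV of basement membranes. Mmp2, or gelatinase A, a product of fibroblasts, read 4145 and 2550 in wild type against 3179 and 2575 in bitransgenic skin through 1416136_at. Both bitransgenic values lay between the wild type values, and the difference was -0.18 ± 0.30 (95% interval -0.92 to 0.55). A second probe set, 1439364_a_at, gave -0.33 and also overlapped. Mmp9, or gelatinase B, which neutrophils, macrophages and keratinocytes can make, read 213 and 64.9 in wild type against 246 and 98.5 in bitransgenic skin. In each genotype replicate 1 was above replicate 2 by more than the genotypes differed, and the difference was 0.35 ± 0.63 (95% interval -1.17 to 1.86). Its sign turned when wild type replicate 2 was left out (-0.40) and when bitransgenic replicate 1 was (-0.25). The other Mmp9 probe set, 1448291_at, was below the filter. Of 7 neutrophil markers measured, 3 passed the filter and Elane, Camp, Ltf and Cxcr2 did not. The sum of those 3 was 183 to 190 in wild type and 604 to 757 in bitransgenic skin, and none was called. Of these, Csf3r (31.8 and 17.2 against 133 and 120) had a wild type mean below the filter. It was tested only through its bitransgenic signals, so the sum was in part higher there by selection.

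Mmp14 codes for a membrane-bound enzyme that cuts collagen and activates the proenzyme of Mmp2 together with Timp2. Through 1448383_at it read 3040 and 1161 in wild type against 1514 and 1025 in bitransgenic skin. Wild type replicate 1 was the highest and the other 3 arrays lay close together. The difference of -0.59 ± 0.47 (95% interval -1.73 to 0.55) did not pass, and it turned to 0.10 without wild type replicate 1. The other 2 probe sets of the gene gave -0.31 and -0.20, and all 3 overlapped between genotypes.

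**Figure D2:**
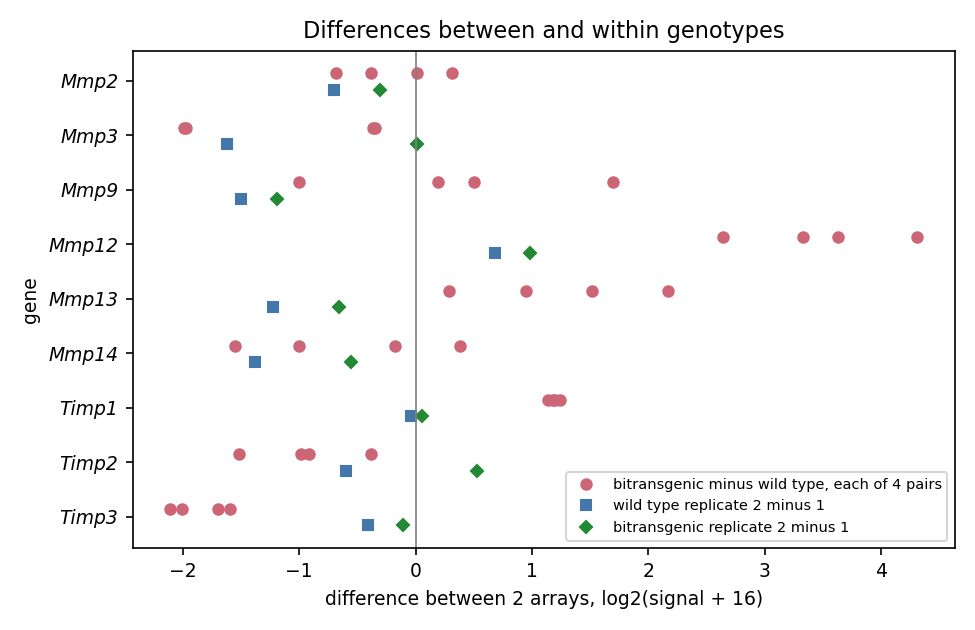
Differences between 2 arrays in log2(signal + 16) for the 9 genes past the filter, with red circles for each of the 4 pairs of a bitransgenic and a wild type array, blue squares for wild type replicate 2 minus 1 and green diamonds for bitransgenic replicate 2 minus 1. For Mmp12, Timp1 and Timp3 all red circles lie farther from 0 than both within-genotype values, whereas for Mmp3, Mmp9, Mmp13 and Mmp14 the wild type arrays differ by more than 1.

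The 2 wild type arrays differed in most enzyme genes. Wild type replicate 1 was above replicate 2 in 8 of the 9 genes tested, Mmp12 being the exception, beside 51.0% of all genes. It was above by 2-fold or more for Mmp3, Mmp9, Mmp13 and Mmp14, beside 7.41% of all genes. The same array had the higher summed signal in 9 of 10 marker lists, among them skeletal muscle, fibroblasts (98978 against 78432), macrophages (16462 against 10003), mast cells (6322 against 3631) and T cells (1171 against 725). The hair follicle markers were lower in it. In bitransgenic skin 1 of the 9 genes, Mmp9, differed by 2-fold or more between the arrays, beside 6.27% of all genes.

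Among the inhibitors, Timp3 fell, Timp1 had higher values without passing, and Timp2 had lower values without passing. Timp3 is the inhibitor that stays bound to the extracellular matrix and also blocks ADAM and ADAMTS proteinases. Through 1449335_at its signal was 7226 and 5424 in wild type against 1788 and 1662 in bitransgenic skin. The bitransgenic arrays were close to each other and well below both wild type arrays. Timp3 fell 3.61-fold (log2 difference -1.85 ± 0.25, 95% interval -2.45 to -1.25), and the 4 pairs of arrays ran from -2.11 to -1.59. The call was lost without bitransgenic replicate 1 (-1.90) and without bitransgenic replicate 2 (-1.80), while the size stayed close to the full value.

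All 4 Timp3 probe sets, which the annotation ties to 1 accession, had lower values in bitransgenic skin with no overlap. Probe set 1449334_at read 1148 and 1139 in wild type against 396 and 419 in bitransgenic skin, with a difference of -1.45 ± 0.26. For 1419089_at the signals were 3464 and 2339 against 1073 and 780, a difference of -1.62 ± 0.31. The remaining one, 1419088_at, read 468 and 1026 against 237 and 313, a difference of -1.30 ± 0.43, and was the only one in which the wild type arrays were 2-fold apart. These probe sets read the same RNA and are no replicates of each other. When all 45037 probe sets other than controls were fitted together, 0.173% passed, and none of the 22 described here did. Of those 22, 8 had both bitransgenic arrays below both wild type arrays (19.3% of all probe sets) and 3 had them above (20.6%).

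Timp1, an inducible inhibitor that is known to rise in wounds and inflammation, read 287 and 279 in wild type against 653 and 679 in bitransgenic skin. The arrays of each genotype were nearly equal, with gaps of at most 0.055, and the groups stood apart. The difference was 1.19 ± 0.28 (2.28-fold, 95% interval 0.52 to 1.86) and did not pass over all genes, although the 4 pairs of arrays lay between 1.14 and 1.24. The standard error is larger than those gaps because limma pools the spread over genes.

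Timp2, which many cells make at a steady level and which takes part in the activation of Mmp2, had 6 probe sets, of which 5 passed the filter. Through 1454677_at it read 8353 and 5500 in wild type against 2908 and 4212 in bitransgenic skin, a difference of -0.95 ± 0.31 (95% interval -1.70 to -0.20) that did not pass. Both bitransgenic arrays lay below the wild type arrays here and in 1433662_s_at (-0.63) and 1450040_at (-0.64). Probe set 1460287_at overlapped between genotypes, with a difference of -0.49. Probe set 1420924_at, dimmer at 286 to 446, had a value of 0.30 and overlapped too, so the probe sets of Timp2 disagreed in sign. The mean over the 5 probe sets past the filter gave -0.48.

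**Figure D3:**
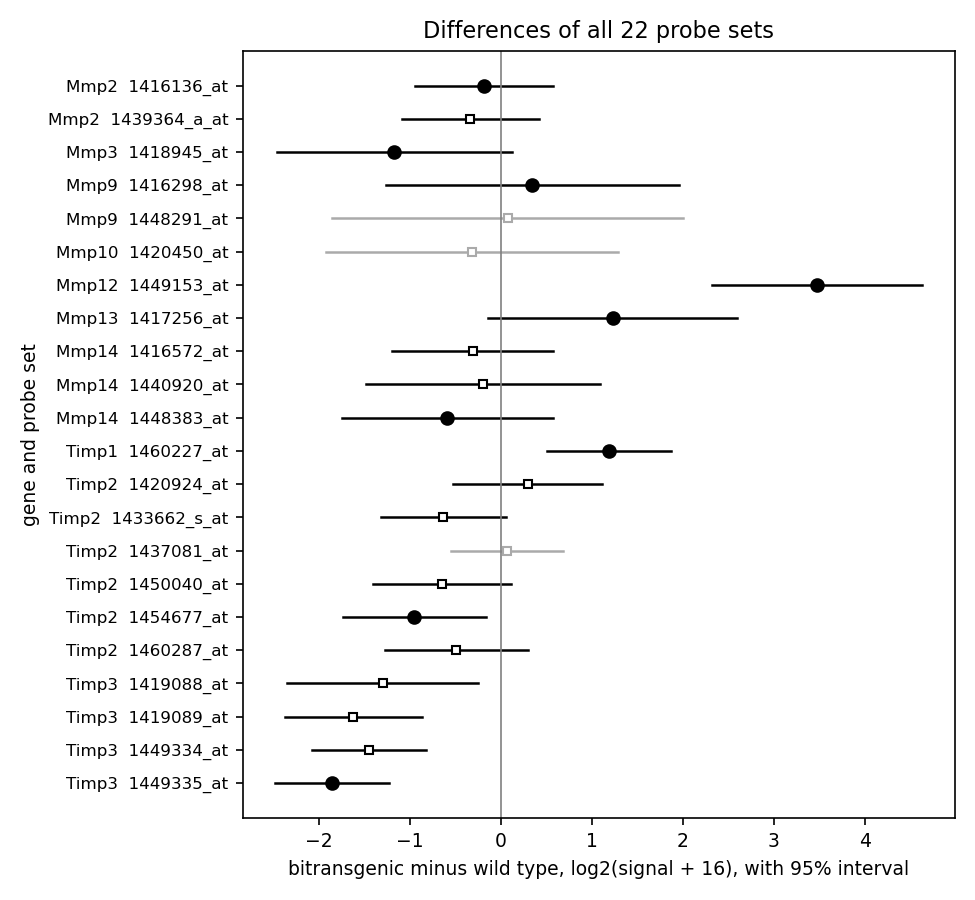
Bitransgenic minus wild type difference in log2(signal + 16) with the 95% interval of the fit over all probe sets, for each of the 22 probe sets, with filled circles for the probe set that stands for its gene, open squares for the others and grey for those below the filter. The 4 Timp3 probe sets lie between -1.85 and -1.30, Mmp12 is at 3.48, and the Timp2 probe sets lie on both sides of 0.

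Fibroblast markers moved in the direction of Timp2 and Timp3. Of 8 tested, 6 had lower means in bitransgenic skin, with a median of -0.59 and none called, and their summed signal was 78432 to 98978 in wild type and 41819 to 46402 in bitransgenic skin. The fat cell markers, 4 of 4 lower and none called, summed to 46697 to 47061 and 21600 to 28293. The part of these cells in the Timp2 and Timp3 differences was not tested. The matrix genes of the fibroblast list had the lowest values, at -1.45 for Col1a1, -1.22 for Lum, -1.01 for Col1a2 and -0.82 for Dcn. Pdgfra, Thy1, Pdgfrb and Fbln1 had -0.35, -0.027, 0.0027 and 0.17.

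The wider system was read through 7 lists of other genes, of which 77 genes were tested. Of these, 0 rose (0.750% of all genes) and 1, Tgfa, fell (1.58% of all genes) in limma's fit, with 6 higher and 14 lower at an unadjusted p under 0.05 (6.91% and 9.76% of all genes), and the median difference was -0.27. Of 6 other metalloproteinases tested none passed, with a median of -0.072, and Mmp23 had the smallest p (-0.98 ± 0.46, adjusted p = 0.358). Mmp11, or stromelysin-3, an enzyme of stromal cells, read 1897 and 321 in wild type against 458 and 363 in bitransgenic skin, so wild type replicate 1 again stood above the other arrays, as for Mmp3. It is named after its values were seen.

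Of 4 other inhibitors tested none passed. Timp4 and Reck, a membrane-anchored inhibitor, had values of -1.12 ± 0.39 and -1.07 ± 0.37 (adjusted p = 0.222 and 0.215), with no overlap between genotypes. Spock2, a matrix proteoglycan of the testican family, had -2.19 ± 0.52 (adjusted p = 0.101). Its bitransgenic mean lay below the filter, so it was tested only through its wild type signals. These 3 are named after their values were seen. Tfpi2, a serine protease inhibitor of the matrix, had the smallest p of the list, at 113 and 88.0 against 308 and 492 (1.81 ± 0.37, adjusted p = 0.0697). With Timp1, Timp2 and Timp3 these made inhibitor genes with values of both signs.

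Of 11 activators and their inhibitors tested none passed, and Prss8, a membrane serine protease of epidermis, had the smallest p (1740 and 2511 against 839 and 546, -1.60 ± 0.33, adjusted p = 0.0672). None of 9 ADAM and none of 13 ADAMTS proteinases passed, which include enzymes that Timp3 is known to block. The ADAM list had a median of -0.19, with Adam8, known from leukocytes, at 0.96 ± 0.32 (adjusted p = 0.204). The ADAMTS list had 11 lower and 2 higher means and a median of -0.39, with Adamts6 at -1.96 ± 0.51 (adjusted p = 0.117). The bitransgenic mean of Adamts6 lay below the filter, so it was tested only through its wild type signals. Of 18 matrix substrates none passed, and Col1a1, the main chain of dermal collagen, had the smallest p at -1.45 ± 0.27 (adjusted p = 0.0531).

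Among 16 factors known to raise metalloproteinase genes, 11 had higher means, with a median of 0.38, and 1 passed. Tgfa, a ligand of the epidermal growth factor receptor, fell from 1922 and 2288 to 577 and 652 (-1.75 ± 0.25, adjusted p = 0.027), opposite to most of that list. The call was lost without bitransgenic replicate 1 (adjusted p = 0.146) or 2 (0.0976), and the mean over its probe sets gave -0.85 (0.194). The AP-1 subunit gene Fosl1 read 58.0 and 89.6 against 228 and 384 (1.82 ± 0.41, adjusted p = 0.0873). Etv4, which codes for the Ets factor PEA3, read 21.4 and 84.4 against 328 and 307 (2.45 ± 0.52, adjusted p = 0.0766). The wild type mean of Etv4 lay below the filter, so it was tested only through its bitransgenic signals. Jun and Fos overlapped between genotypes (-0.12 and 0.78), as did Junb (0.36), and Jund had a value of -0.59 ± 0.22. Fosl2 had -0.31 with no overlap. The Ets factor gene Ets2 read 8170 and 8247 against 4314 and 5047 (-0.81 ± 0.23, adjusted p = 0.137), also with no overlap. Ets1 had 0.41, with both bitransgenic arrays above both wild type arrays, and Etv5 (0.35) overlapped. Genes of that list other than Tgfa are named after their values were seen. Proteins of the Fos and Jun families are known to bind the AP-1 motif, and Etv4 the PEA3 motif. The part of these factors in the metalloproteinase and inhibitor values was not tested.

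**Figure D4:**
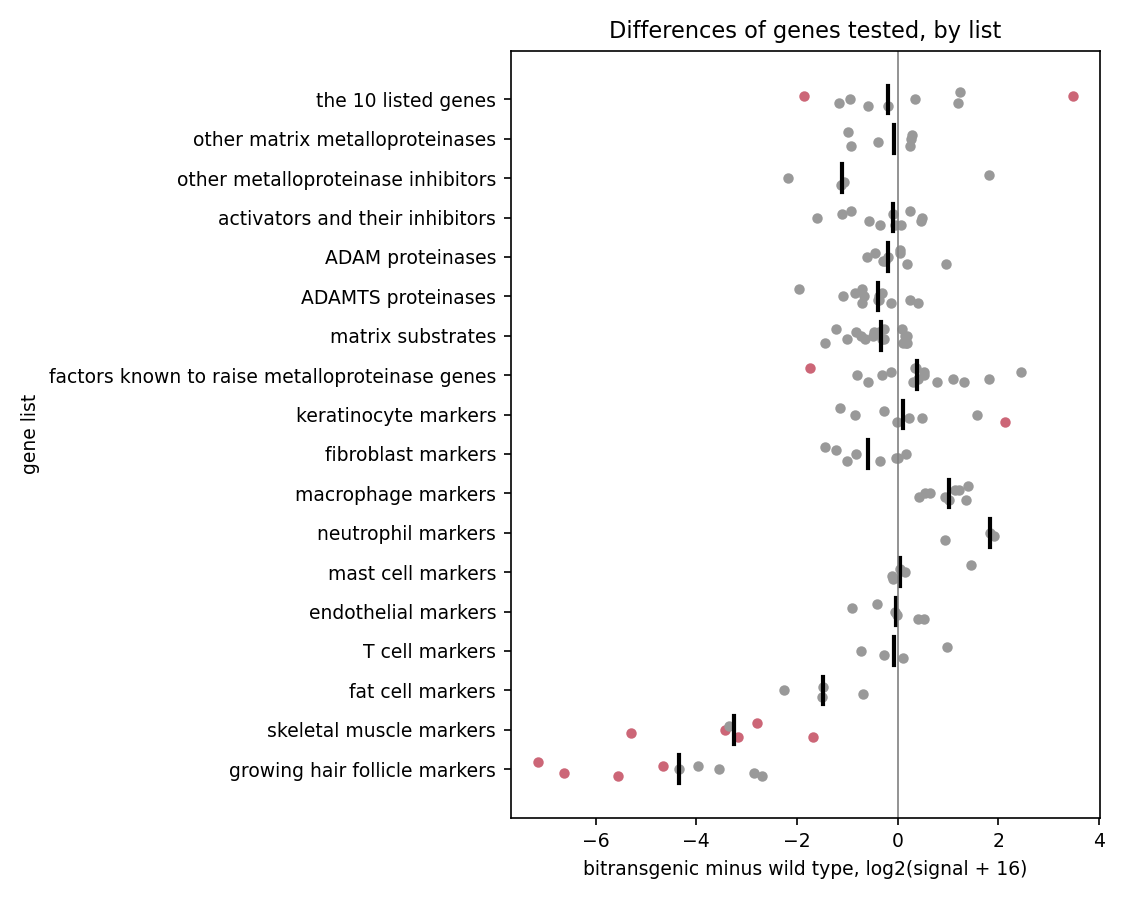
Bitransgenic minus wild type difference in log2(signal + 16) of each gene tested, by list, with red for genes past the threshold, grey for the others and a black bar at the median. The 9 described genes run from -1.85 (Timp3) to 3.48 (Mmp12), the macrophage markers all lie above 0, and the muscle and hair follicle markers all lie below it.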

How the data were processed

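The deposited values are probe set signals, that is array intensity on a linear scale. MAS5 and affy are named per the submitters' processing notes. No source used here gives their versions, roles or detection calls. The deposited intensity values had a trimmed mean near 500 on every array, so each was read relative to its array. Of 45101 probe sets, 64 controls were left out. Symbols came from the platform annotation: 34945 probe sets had 1 symbol, 932 several and 9160 none. Signals were taken as log2(signal + 16). Probe sets with a mean at or above the 40th percentile (6.19, a signal of 57.0) were kept, 27022 in all, and the brightest stood for its gene. The comparison of genotypes used limma 3.58.1 under R 4.3.3 (lmFit, eBayes with trend, 2 residual degrees of freedom), and the procedure was checked on simulated data. A permutation of 2 against 2 arrays cannot go below p = 0.333. Members and lists were chosen with earlier results of these data known. Of each list, called genes, or else the one of smallest p, are named; others are said to be named after their values were seen. Values of probe sets that do not stand for a gene come from a fit of all probe sets. Promoter windows came from RefSeq (GRCm38.p6), and 8 of the 10 genes were matched. The number of arrays, 2 per genotype, limits the precision.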

Additional observations from a re-analysis of the deposited data

How the results depend on the processing

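With 2 arrays per genotype, the counts of calls rested on single arrays. Leaving out each array in turn gave 25 to 278 genes higher (98 in full) and 111 to 578 lower (206 in full). Among the described genes it gave 0 to 1 higher and 0 to 2 lower, and among the 77 genes of the other lists 0 to 3 higher and 0 to 7 lower. With no filter 52 genes were higher and 132 lower. With replicate number as a block, 207 genes were higher and 438 lower, and 3 and 4 genes of the other lists. The same-numbered arrays' deviations correlated at 0.211 over genes, and with 2 pairs the numbers are not taken as a pairing. Of the other lists, 2 genes were lower under quantile normalization and 0 with the mean over probe sets. Mmp12 rose and Timp3 fell under the other pseudocounts, filters, normalizations, probe set rules, no trend and the block. Over the alternatives Mmp12 ran from 2.82 to 3.97 and Timp3 from -2.06 to -1.56. Without bitransgenic replicate 2 neither passed, and without bitransgenic replicate 1 Timp3 did not. Leaving out single arrays moved Mmp2 between -0.53 and 0.17 and Mmp14 between -1.28 and 0.10, with the sign turned without wild type replicate 1. It moved Mmp9 between -0.40 and 1.10, with the sign turned without wild type replicate 2 or bitransgenic replicate 1 (-0.25). The cause was not tested. Leaving out an array leaves 1 in its group, which is assumed to vary like the others.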
